A study of Mus musculus with 6 samples.

Results

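Iron handling in the embryonic cortex was examined through 9 genes chosen by name for their known roles: Tfrc, Trf, Hmox1, Fth1, Ftl1, Slc11a2, Slc40a1, Ireb2 and Aco1. Of these, 8 were among the 17068 genes of the deposited count table, and Trf, which encodes transferrin, was not analysed here. The data are bulk RNA-Seq of the lateral cortex of female c57/bl6 embryos at E12.5, in 6 libraries. There were 4 Cre-negative Control libraries, of which 1, 2 and 4 carried 1 floxed Foxp1 allele (Foxp1 fl/+) and 3 carried both (Foxp1 fl/fl), and 2 Foxp1cKO libraries (Foxp1 fl/fl;Emx1Cre). Foxp1 is a forkhead transcription factor, and Emx1Cre acts in the progenitors of the dorsal telencephalon and their progeny, so vessels, blood cells and interneurons in the same dissection are not targeted. The study's methods describe each sample as 1 female embryo. The comparison asks which genes differ early in the cortex when Foxp1 is removed from its progenitors.

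Cells take up iron bound to transferrin through the transferrin receptor, release it from endosomes through a divalent metal transporter, store the excess in ferritin shells and export it through ferroportin. When iron is scarce, the iron regulatory proteins encoded by Aco1 and Ireb2 bind a short RNA hairpin, the iron-responsive element (IRE). Binding in a 5′ UTR blocks translation, as in the ferritin mRNAs, and binding in the 3′ UTR of the Tfrc mRNA protects it from decay. Much of iron regulation therefore acts on mRNA stability and translation, and only the former can appear in read counts. In the developing brain, dividing progenitors need iron for DNA synthesis and respiration, and Tfrc and Hmox1 are also known targets of the hypoxia-inducible factors.

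The hairpins are shown first because they divide the genes by their mode of control. The UTRs of 14243 measured genes were searched in GENCODE M21 transcripts (GRCm38) for a bulged C, 5 bases, the letters CAGTGN and 5 bases pairing with the first 5. All 5 pairs were found in the UTRs of 137 genes (0.962%), 28 with a match in a 5′ UTR (0.197%) and 109 in a 3′ UTR (0.765%). In the sequences, read 5′ to 3′ with T for U, capitals mark the bulged C and the loop.

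The 5′ UTRs of both ferritin subunits and of ferroportin held 1 match each, at chr19:9982732-9982760 on the plus strand (Fth1), chr7:45459779-45459807 on the minus strand (Ftl1) and chr1:45925465-45925493 on the minus strand (Slc40a1).
Fth1: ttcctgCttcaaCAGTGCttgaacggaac
Ftl1: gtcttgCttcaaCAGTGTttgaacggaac
Slc40a1: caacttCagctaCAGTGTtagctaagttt

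The 3′ UTR of Tfrc held 4 matches on the plus strand, at chr16:32631219-32631247, chr16:32631598-32631626, chr16:32631663-32631691 and chr16:32631710-32631738.
Tfrc, the first: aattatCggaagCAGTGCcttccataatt
Tfrc, the second: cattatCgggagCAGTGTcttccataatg
Tfrc, the third: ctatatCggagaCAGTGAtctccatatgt
Tfrc, the fourth: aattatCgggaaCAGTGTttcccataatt

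The 3′ UTR of Slc11a2 held a hairpin with 4 of the 5 pairs at chr15:100395153-100395181 on the minus strand, a looser criterion that 892 genes met (6.26%). It lies in the transcript with the longer 3′ UTR of the 2 drawn in the map, and gene-level counts do not separate them.
Slc11a2: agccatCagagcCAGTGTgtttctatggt

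No match was found in the UTRs of Hmox1, Ireb2 or Aco1.

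**Figure D1:**
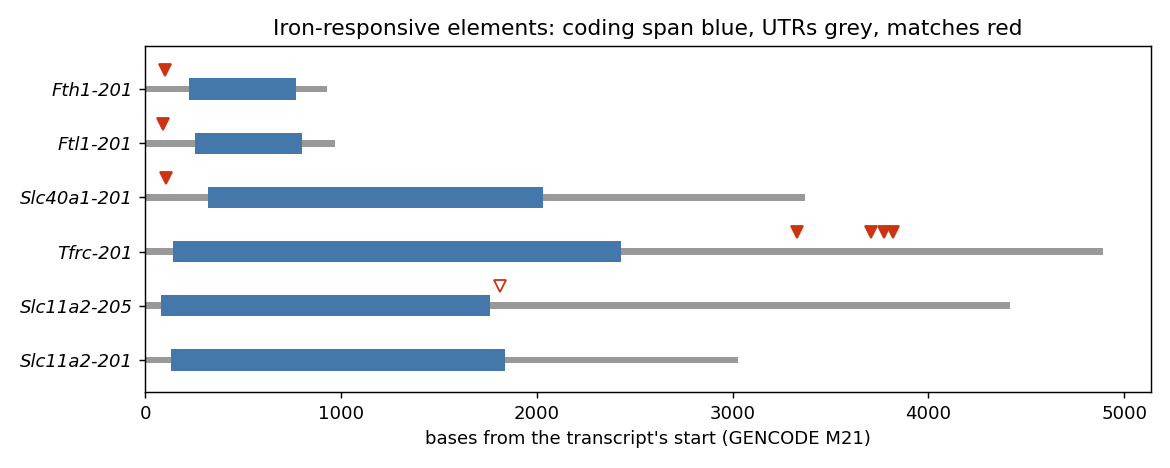
Transcripts of the 5 genes with a hairpin match, drawn to scale in bases from the transcript's start, with the coding span in blue, UTRs in grey, filled triangles for matches with 5 pairs and an open triangle for the match with 4. Matches sit before the coding span in Fth1, Ftl1 and Slc40a1 and after it in Tfrc (4 matches) and in 1 of the 2 Slc11a2 transcripts.

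In GENCODE M21 (GRCm38), the genes of uptake lie at chr16:32608920-32632794 (Tfrc, plus strand) and chr15:100387898-100425072 (Slc11a2, minus). The ferritin genes lie at chr19:9980598-9985098 (Fth1, plus) and chr7:45457944-45459884 (Ftl1, minus), and ferroportin at chr1:45908068-45926523 (Slc40a1, minus). Ireb2 lies at chr9:54863789-54912530, Aco1 at chr4:40143081-40198338 and Hmox1 at chr8:75093621-75100589, all on the plus strand.

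Among the controls, levels were compared as CPM (read counts scaled to library size, after TMM normalization) per kilobase of exon. Ferritin mRNAs stood at the top, Ftl1 (light chain) at 447 ± 14.9 and Fth1 (heavy chain, which oxidizes the iron) at 58.9 ± 6.99 CPM per kb (SD, n = 4 for these and the following levels). The sensors followed, Ireb2 at 32.3 ± 1.83 and Aco1 at 26.3 ± 1.32 CPM per kb. Tfrc stood at 22.2 ± 4.29, Slc11a2 at 7.56 ± 0.326, Hmox1 at 4.87 ± 2.44 and Slc40a1 at 1.05 ± 0.220 CPM per kb. The ranges over the controls overlapped for Aco1 and Tfrc (24.6 to 27.3 against 18.4 to 28.3) and for Slc11a2 and Hmox1 (7.09 to 7.82 against 2.99 to 8.42). The other neighbours in the order did not overlap. With the longest transcript as the length the order of the means was the same but levels were higher, as for Fth1 (99.1), Ireb2 (53.1) and Slc40a1 (2.41 CPM per kb). Ferritin counts are uncertain to the extent that reads are shared with near-identical copies, since GENCODE M21 also lists 2 heavy-chain and 3 light-chain pseudogenes by name.

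The spread between controls differed widely between the genes. The coefficient of variation was 3.34% for Ftl1, 4.31% for Slc11a2, 5.01% for Aco1, 5.66% for Ireb2 and 11.9% for Fth1. It was 19.3% for Tfrc and 20.96% for Slc40a1. Hmox1 varied most, with an SD of 4.26 on a mean of 8.53 CPM, as Control 4 was far above the other 3.

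Before the groups were compared, the targeted gene was checked. Foxp1 was at 59.7, 60.8, 71.2 and 79.1 CPM in Controls 1 to 4 and at 83.2 and 76.8 CPM in the libraries labelled Foxp1cKO (log2 fold change 0.24, SE 0.129, adjusted p = 0.468, in the quasi-likelihood test of edgeR with Benjamini-Hochberg correction over the whole table). Its level was thus not lower in those libraries, and gene-level counts hold reads of floxed and other exons together, so this checks no label and groups are named as labelled. Of the cortical markers, 9 of 10 were analysed, and they summed to 1997 to 2594 CPM in the controls and 1987 to 2177 CPM in the libraries labelled Foxp1cKO. The 12 erythroid markers summed to 1475, 1116, 1168 and 3618 CPM in Controls 1 to 4 and to 3912 and 4203 CPM in the libraries labelled Foxp1cKO, so Control 4 stood near the latter. Marker sums of macrophages (26.9 to 60.6 against 49.6 to 52.3 CPM) and mesenchyme (110 to 590 against 176 to 368 CPM) overlapped between the groups, as did those of endothelial cells (151 to 232 against 209 to 259), ventral telencephalon (150 to 441 against 233 to 344) and choroid plexus (3 of 7 markers, 8.86 to 11.9 against 10.3 to 11.8). Of the 10 endothelial markers 7 were higher and 3 lower, with a median log2 fold change of 0.08. Flt1, a VEGF receptor gene, passed the adjusted threshold (log2 fold change 1.64, adjusted p = 0.0179 in edgeR), as did 0.152% of all genes. Flt1 and Pecam1 (2 of 10) lay above all controls, against 11.5% of all genes.

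None of the 8 iron handling genes passed an adjusted p of 0.05 in edgeR's quasi-likelihood test, a threshold that 26 of all 17068 genes passed (0.152%). At an unadjusted p under 0.05 there were 2 of 8, Fth1 higher and Slc11a2 lower in the libraries labelled Foxp1cKO, against 13.0% of all genes. Both of those libraries lay above all controls for Fth1, as they did for 11.5% of all genes, and below all controls for Slc11a2 and Ireb2, as they did for 13.1%. At these shares about 1 gene of 8 would be found in each count. The median log2 fold change was -0.077 over the 8 genes and -0.0044 over all genes. DESeq2 called 507 genes and none of the 8, with 3 of them at an unadjusted p under 0.05. Without Control 4, whose blood markers stood apart, edgeR called 96 of all genes and again none of the 8. It had 3 of the 8 at an unadjusted p under 0.05. The share of all genes at that unadjusted p is not given for either fit, so these counts have no background beside them. In a bulk sample, fewer cells of a type and less RNA per cell cannot be told apart.

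**Figure D2:**
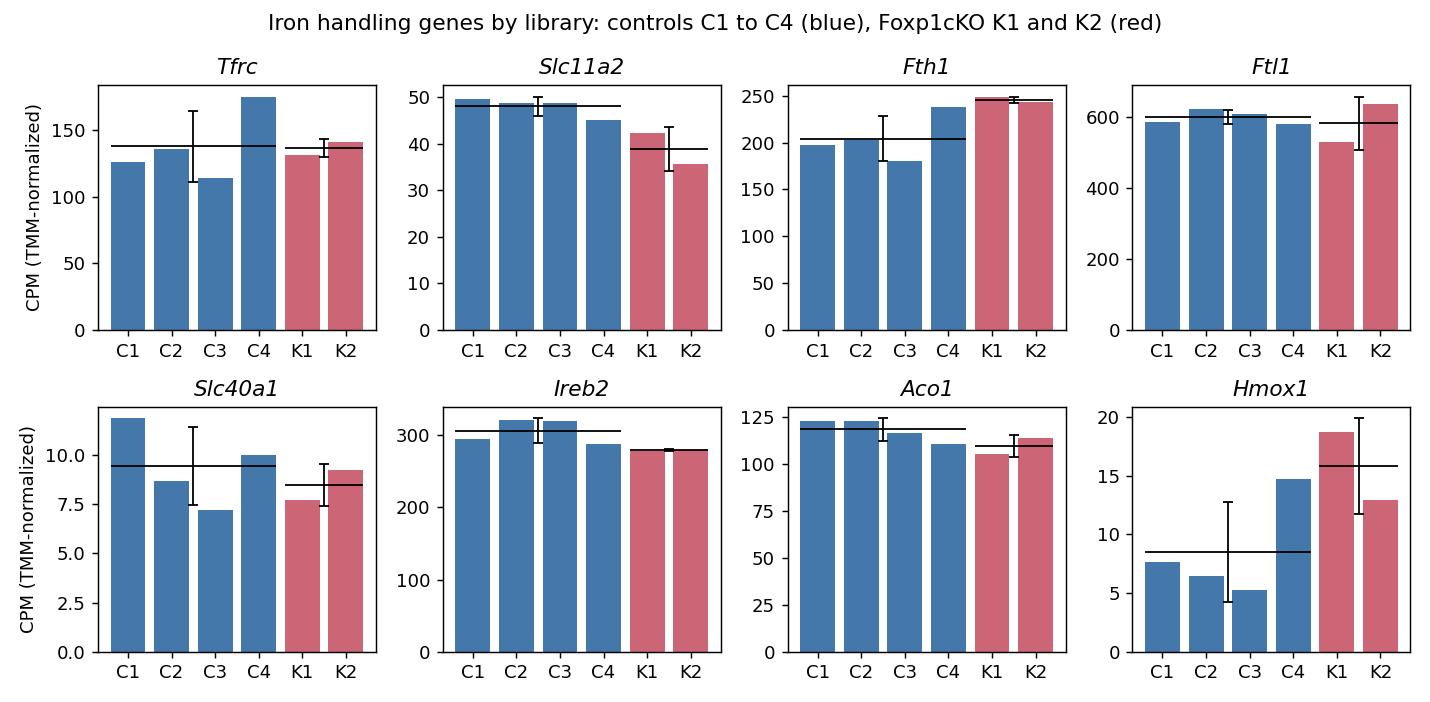
TMM-normalized CPM of the 8 genes in Controls 1 to 4 (C1 to C4, blue) and the libraries labelled Foxp1cKO (K1 and K2, red), with black lines at the group means and error bars of 1 SD. Bars of the groups do not overlap for Slc11a2, Fth1 and Ireb2, and Control 4 is the highest control for Tfrc, Fth1 and Hmox1.

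Uptake was represented by Tfrc and Slc11a2. Tfrc, the receptor for iron-loaded transferrin and an mRNA with 4 hairpins, was at 126, 136, 114 and 175 CPM in Controls 1 to 4 and at 131 and 141 CPM in the libraries labelled Foxp1cKO. Both Foxp1cKO values lay inside the range of the controls, and Control 4 was the highest of all 6 libraries. The log2 fold change was -0.014 (SE 0.166, 95% interval -0.41 to 0.38, adjusted p = 0.981 in edgeR), and it was 0.12 without Control 4. An increase or decrease of Tfrc within that interval was not detectable with these libraries.

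Slc11a2 encodes DMT1, which carries ferrous iron across the endosomal and plasma membranes. It was at 49.7, 48.7, 48.8 and 45.0 CPM in the controls and at 42.3 and 35.6 CPM in the libraries labelled Foxp1cKO. Every Foxp1cKO value was below every control, with the 4 controls close together and the Foxp1cKO libraries apart from each other. The estimated log2 fold change was -0.30 (SE 0.0962, interval -0.53 to -0.076), a fold of 0.810, with an adjusted p = 0.294 in edgeR. Without Foxp1cKO 2 the log2 fold change was -0.20 and the unadjusted p 0.127 in the same edgeR test. Gm5475 overlaps Slc11a2 by 2926 bases on the opposite strand, and the strand setting of the counting is not given in the sources used here.

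Ferritin, the storage protein, showed different values for its subunits. Fth1 was at 197, 202, 180 and 238 CPM in Controls 1 to 4 and at 248 and 244 CPM in the libraries labelled Foxp1cKO. Both Foxp1cKO values were above all controls, by a small margin over Control 4. The log2 fold change was 0.27 (SE 0.113, interval 0.0007 to 0.53), a fold of 1.20, with an adjusted p = 0.382 in edgeR.

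Ftl1 was at 584, 622, 608 and 580 CPM in the controls and at 528 and 634 CPM in the libraries labelled Foxp1cKO. The Foxp1cKO libraries held both the lowest and the highest value of the 6, and the groups overlapped. The estimated log2 fold change was -0.041 (SE 0.0943, interval -0.26 to 0.18, adjusted p = 0.886 in edgeR). Ftl1 overlaps the miRNA gene Gm22133 by 109 bases on the same strand and Gm10252 by 416 bases on the opposite strand.

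The ratio of heavy to light chain counts was 0.338, 0.326, 0.296 and 0.410 in the controls and 0.470 and 0.384 in the libraries labelled Foxp1cKO. The groups overlapped, since Control 4 lay above Foxp1cKO 2. The ratio of Fth1 to Tfrc, storage against uptake, was 1.57, 1.49, 1.58 and 1.36 in the controls and 1.89 and 1.73 in the libraries labelled Foxp1cKO. Both Foxp1cKO ratios were above all 4 controls. In an exact permutation of 4 libraries against 2, the smallest one-sided p, when doubled, is 0.133, so the ratios are given as values.

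Slc40a1 encodes ferroportin, the known exporter of cellular iron, and was the lowest of the 8 genes per kilobase. It was at 11.9, 8.67, 7.23 and 10.02 CPM in the controls and at 7.73 and 9.23 CPM in the libraries labelled Foxp1cKO. Both Foxp1cKO values lay within the controls' range. The log2 fold change was -0.16 (SE 0.218, interval -0.67 to 0.36, adjusted p = 0.799 in edgeR).

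The sensors Ireb2 and Aco1 varied little between libraries. Ireb2, whose protein (IRP2) is degraded when iron is plentiful, was at 295, 322, 321 and 288 CPM in the controls and at 279 and 280 CPM in the libraries labelled Foxp1cKO. The Foxp1cKO values were nearly equal to each other and below all controls. The estimated log2 fold change was -0.13 (SE 0.0789, interval -0.32 to 0.054, adjusted p = 0.510 in edgeR).

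Aco1 encodes IRP1, which is a cytosolic aconitase when it carries an iron-sulfur cluster and an RNA-binding protein when it does not. It was at 123, 123, 117 and 110 CPM in the controls and at 105 and 113 CPM in the libraries labelled Foxp1cKO, with a log2 fold change of -0.11 (SE 0.0790, interval -0.30 to 0.073, adjusted p = 0.569 in edgeR). Foxp1cKO 1 was the lowest of the 6 libraries, and Foxp1cKO 2 was above Control 4. The ratio of Ireb2 to Aco1 ranged from 2.40 to 2.75 in the controls and was 2.65 and 2.47 in the libraries labelled Foxp1cKO, inside that range.

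Hmox1, heme oxygenase 1, opens the heme ring and frees its iron. It was at 7.69, 6.45, 5.23 and 14.7 CPM in Controls 1 to 4 and at 18.7 and 13.0 CPM in the libraries labelled Foxp1cKO. Both Foxp1cKO libraries were above Controls 1 to 3, and Control 4 lay between them. The log2 fold change was 0.89 (SE 0.402, interval -0.058 to 1.84), a fold of 1.85, with an adjusted p = 0.407 in edgeR. Without Control 4 it was 1.29, with an adjusted p = 0.0875 in edgeR.

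**Figure D3:**
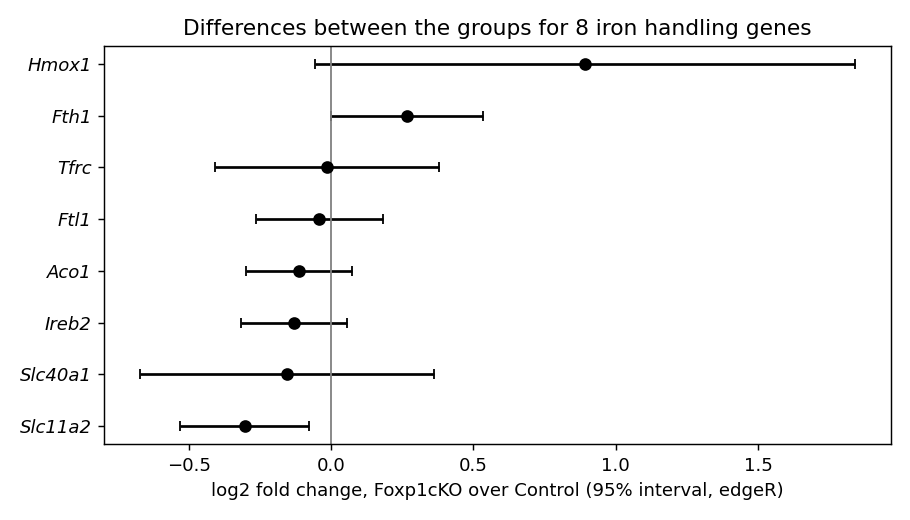
Log2 fold change of each gene (libraries labelled Foxp1cKO over controls), with its 95% interval from edgeR. Hmox1 has the highest estimate (0.89) and the widest interval, and the intervals of Fth1 (from 0.0007) and Slc11a2 (to -0.076) lie on 1 side of 0.

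The libraries high in Hmox1 were those high in erythroid markers. Per 1000 CPM of the 12 erythroid markers, Hmox1 was at 5.21, 5.78, 4.48 and 4.07 CPM in the controls. It was at 4.79 and 3.08 CPM in the libraries labelled Foxp1cKO. On this scale Foxp1cKO 1 lay inside the controls' range and Foxp1cKO 2 below it. Of the 12 markers 11 were higher in the libraries labelled Foxp1cKO and 5 lay above all controls, against 11.5% of all genes. None passed an adjusted p of 0.05 in edgeR, and 3 had an unadjusted p under 0.05, against 13.0% of all genes. Macrophages also express Hmox1. Of their 10 markers, 7 had a positive log2 fold change and 3 a negative one. C1qa, C1qc and Ptprc (3 of 10) lay above all controls, against 11.5% of all genes. C1qa and Ptprc (2 of 10) had an unadjusted p under 0.05 in edgeR, against 13.0% of all genes. The 10 macrophage markers summed to 60.6, 37.98, 26.9 and 54.5 CPM in the controls and 52.3 and 49.6 CPM in the Foxp1cKO libraries. The groups overlapped. The part of blood or macrophage RNA in the Hmox1 values was not tested. Hmox2, the constitutive heme oxygenase, was at 38.5, 36.6, 32.6 and 37.0 CPM in the controls and at 31.5 and 32.6 CPM in the libraries labelled Foxp1cKO (log2 fold change -0.17, SE 0.0922, adjusted p = 0.463 in edgeR). The ratio of Hmox1 to Hmox2 was 0.200, 0.176, 0.160 and 0.399 in the controls and 0.595 and 0.397 in the libraries labelled Foxp1cKO, again with Control 4 beside the latter.

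**Figure D4:**
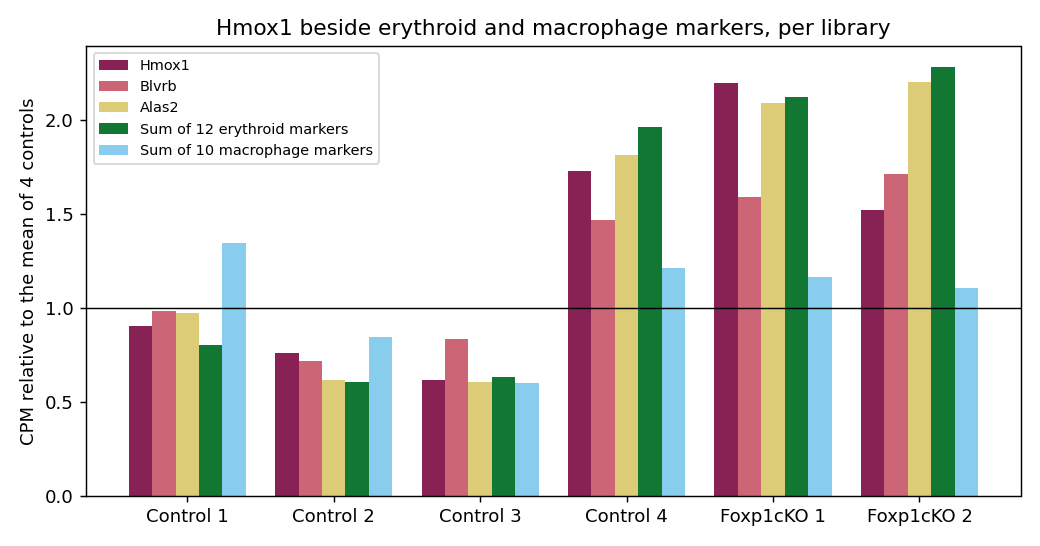
CPM of Hmox1, Blvrb, Alas2 and the summed erythroid and macrophage markers in each library, divided by the mean of the 4 controls, which is the line at 1. In Control 4 and both libraries labelled Foxp1cKO the bars of Hmox1, Blvrb, Alas2 and the erythroid sum (3618 to 4203 CPM) stand above those of Controls 1 to 3, while the macrophage sum is highest in Control 1 (60.6 CPM). Alas2 is also part of the erythroid sum.

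Of the wider genes of heme metabolism, Blvrb and Alas2 divided the libraries the same way, though Alas2 is itself 1 of the 12 erythroid markers. Blvrb, a biliverdin reductase abundant in red cells, was at 5.31, 3.86, 4.51 and 7.94 CPM in the controls and at 8.58 and 9.24 CPM in the libraries labelled Foxp1cKO (log2 fold change 0.72, SE 0.284, adjusted p = 0.364 in edgeR). Alas2, the erythroid form of the first enzyme of heme synthesis and itself an mRNA with an IRE, was at 21.7, 13.7, 13.5 and 40.4 CPM in the controls and at 46.7 and 49.2 CPM in the libraries labelled Foxp1cKO (log2 fold change 1.10, SE 0.427, adjusted p = 0.359 in edgeR). For both genes Control 4 was the highest control and lay below both Foxp1cKO libraries.

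Alas1, the form of that enzyme used outside red cells, was at 39.5, 42.9, 35.0 and 31.6 CPM in the controls and at 28.3 and 27.9 CPM in the libraries labelled Foxp1cKO (log2 fold change -0.41, SE 0.133, adjusted p = 0.304 in edgeR). Its Foxp1cKO values were below all controls, as were those of the later enzymes Alad, Uros and Ppox, so 4 of 9 genes of heme synthesis lay there against 13.1% of all genes. Cpox and Fech had log2 fold changes of 0.37 (adjusted p = 0.487) and 0.27 (adjusted p = 0.559) in edgeR. Of the 9 genes of heme synthesis 4 were higher and 5 lower, with none past the adjusted threshold. Of the 10 analysed genes of heme degradation and transport 4 were higher and 6 lower, again with none past it, and the heme exporters Flvcr1 and Abcg2 (2 of 10 genes, against 13.1% of all genes) lay below all controls. Flvcr2 and Slc46a1, both placed in this list under heme transport, had log2 fold changes of -0.72 (adjusted p = 0.536) and -0.34 (adjusted p = 0.533) in edgeR.

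Other genes of each step of iron traffic were taken from lists, none of which held a gene past the adjusted threshold in edgeR, and their log2 fold changes are plotted with the lists' medians. Of 12 analysed uptake genes (of 15) 7 were higher and 5 lower, with a median log2 fold change of 0.065. Tfr2, the second transferrin receptor, had a log2 fold change of 0.54 (adjusted p = 0.651), and the metal transporter Slc39a8 one of 0.21 (adjusted p = 0.730). Steap3, an endosomal ferrireductase, had one of 0.28 (adjusted p = 0.828 in edgeR). The transporter Slc39a14 also lay below all controls, as Slc11a2 did (2 of 12 genes, against 13.1% of all genes). Of 6 storage genes (of 7) 3 were higher and 3 lower, and the ferritinophagy receptor Ncoa4 was at 35.2 to 44.1 CPM in the controls and 41.7 to 42.1 CPM in the libraries labelled Foxp1cKO, inside the controls' range. Pcbp2, an iron chaperone, and Herc2, a ligase in ferritinophagy, had log2 fold changes of 0.11 (adjusted p = 0.750) and -0.10 (adjusted p = 0.818) in edgeR.

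Of 4 export genes (of 5) 1 was higher and 3 lower. Heph, the ferroxidase hephaestin that works with ferroportin, had a log2 fold change of -0.46 (SE 0.303, adjusted p = 0.549 in edgeR). Cp, ceruloplasmin, was at 4.07, 0.772, 0.302 and 1.19 CPM in the controls and at 0.457 and 0.712 CPM in the libraries labelled Foxp1cKO, with Control 1 the highest of the 6 libraries. App, which is also thought to stabilize ferroportin, had a log2 fold change of 0.21 (adjusted p = 0.532 in edgeR). Of 7 sensing genes (of 10) 2 were higher and 5 lower. Fbxl5, the iron-sensing part of the ligase that degrades IRP2, was at 120, 124, 121 and 126 CPM in the controls and 121 and 138 CPM in the libraries labelled Foxp1cKO (log2 fold change 0.08, SE 0.0778, adjusted p = 0.688 in edgeR). Bmp6, an inducer of hepcidin, had a log2 fold change of 0.26 (adjusted p = 0.891 in edgeR).

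The 10 mRNAs with a known IRE divided around 0, with 4 higher, 6 lower and a median log2 fold change of -0.015. Among them, Fth1 and Alas2 (5′ element) lay above all controls and Slc11a2 (3′ element) below. Cdc14a, a phosphatase gene with a 3′ element, had a log2 fold change of 0.40 (SE 0.157, adjusted p = 0.364 in edgeR). Epas1, which encodes HIF-2α and has a 5′ element, had one of 0.35 (SE 0.169, adjusted p = 0.424 in edgeR). Both groups of elements thus held genes with values on either side of 0.

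**Figure D5:**
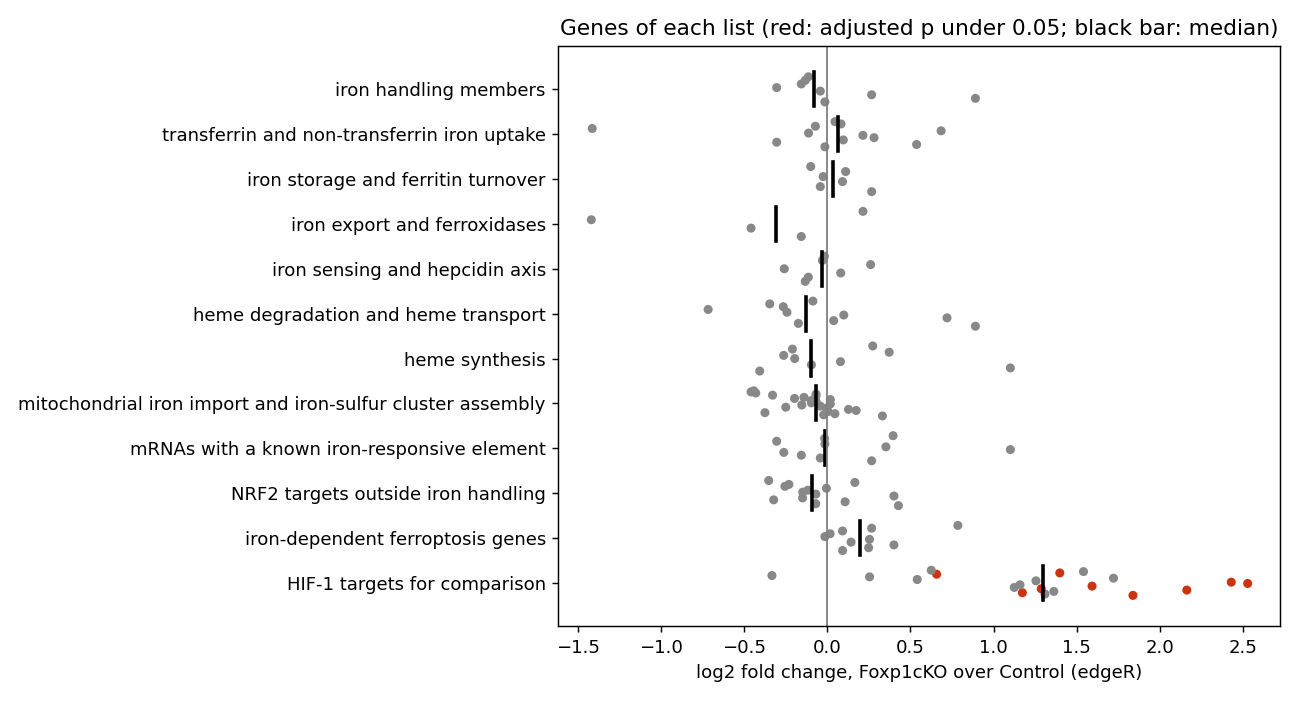
Log2 fold change of each gene of the 12 lists (libraries labelled Foxp1cKO over controls), with red points for an adjusted p under 0.05 in edgeR and a black bar at each list's median. Red points are found in the HIF-1 list alone (9 of 20 genes, median 1.297), and the medians of the other lists lie between -0.31 (iron export) and 0.20 (ferroptosis).

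Since Tfrc and Hmox1 are known HIF-1 targets, a list of 20 other HIF-1 targets was set beside them. The study names HIF-1 signaling from these same samples, so the list is not independent evidence of its direction. Of the 20 genes 19 were higher, and the median log2 fold change was 1.297. The adjusted threshold in edgeR was passed by 9 of them, against 0.152% of all genes. The growth factor gene Vegfa was at 71.0, 64.9, 71.7 and 71.3 CPM in the controls and 231 and 267 CPM in the libraries labelled Foxp1cKO (log2 fold change 1.84, SE 0.0840, adjusted p = 0.00165 in edgeR), and Bnip3, a mitophagy receptor gene, rose by 2.53 on the log2 scale (SE 0.162, adjusted p = 0.00843 in edgeR). The others past the threshold were Slc2a3, Pdk1, Pfkl, Aldoa, Adm, Ero1l and P4ha1, with log2 fold changes from 0.66 (Ero1l) to 2.43 (Adm). The interval of Tfrc ended at 0.38, below the list's median, and that of Hmox1 (-0.058 to 1.84) held it. Whether HIF-1 acts on either gene in this tissue was not tested.

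Promoters were available for Tfrc (2), Fth1 (2), Ftl1, Ireb2 and Aco1 from RefSeq (GRCm38.p6), each from 250 bases before to 50 after a start, and were searched on both strands. The core ACGTG bound by the hypoxia-inducible factors was present in both promoters of Tfrc, at 1 place in their overlap, in none of the other 5, and in 19.6% of all 32851 promoters. It is shown at chr16:32608884-32608908 on the plus strand with the core in capitals.
Tfrc promoter: cggtaggtgtACGTGcggaaggaag

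The related core GCGTG, in 32.4% of promoters, was found in both promoters of Tfrc, in 1 of the 2 of Fth1 and in that of Ftl1. Neither the NRF2 core TGACNNNGC (12.4% of promoters) nor the forkhead letters TGTTTAC (3.65%) was in any of the 7. A match is a description of the letters in the window.

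NRF2, which responds to oxidative stress, also drives Hmox1, Fth1 and Ftl1. Of 14 analysed NRF2 targets outside iron handling (of 15) 4 were higher and 10 lower, with a median log2 fold change of -0.09 and none past the adjusted threshold in edgeR. Nqo1, a classical target, was at 0.953, 1.03, 1.04 and 1.60 CPM in the controls and at 1.77 and 1.36 CPM in the libraries labelled Foxp1cKO. As for Hmox1, Control 4 lay between the Foxp1cKO libraries. Prdx1 and Slc7a11 had log2 fold changes of -0.35 (adjusted p = 0.475) and 0.40 (adjusted p = 0.532) in edgeR. Of the 14 genes 2 had an unadjusted p under 0.05, against 13.0% of all genes, Txnrd1 and Taldo1, both lower. Txnrd1, thioredoxin reductase, was at 221, 261, 232 and 233 CPM in the controls and at 191 and 188 CPM in the libraries labelled Foxp1cKO, below all controls (log2 fold change -0.32, SE 0.0867, adjusted p = 0.265 in edgeR).

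The list of iron-dependent cell death (ferroptosis) mixes genes that favour it with suppressors, so a shared direction has no single reading. Of its 10 genes 9 were higher in the libraries labelled Foxp1cKO, as were 8407 of all 17068 genes. Above all controls lay 4 of the 10, against 11.5% of all genes. The median log2 fold change was 0.20, with none past the adjusted threshold. Fth1 is 1 of the 3 of 10 with an unadjusted p under 0.05 in edgeR, against 13.0% of all genes, beside Acsl4, which loads membranes with oxidizable lipids (log2 fold change 0.25, adjusted p = 0.381), and Chac1, which degrades glutathione (log2 fold change 0.79, adjusted p = 0.332). Chac1 was at 0.840, 1.08, 0.988 and 0.610 CPM in the controls and at 1.51 and 1.52 CPM in the libraries labelled Foxp1cKO, with both above all controls. Aifm2, a ferroptosis suppressor, had a log2 fold change of 0.25 (adjusted p = 0.636 in edgeR).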

How the data were processed

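RNA of 6 libraries was prepared by the authors with a stranded kit, and paired-end reads were aligned to mm10 with STAR. The submitters' processing notes name HTSeq 0.9.1 and DESeq2 1.30.1. The deposited counts are whole reads per gene (HTSeq, union mode, strand setting not given in the sources used here), without normalization and after the authors' removal of low genes. The authors also deposited VST values of these counts on a log2 scale, used here only for an alternative test. Totals were 50076008 to 78346979 counts, where 3 counts are 0.0381 to 0.0596 CPM, and such floors cover counting error only.

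Groups came from the labels. The study's model held the litter, which the labels used here do not give. edgeR 4.0.16 (R 4.3.3) gave TMM-normalized CPM, the quasi-likelihood test of group over all 17068 genes and Benjamini-Hochberg adjusted p-values (threshold 0.05). The code was tested on simulated counts. DESeq2 1.42.0, limma 3.58.1 on the VST values, other scalings, a filter of 1 CPM in 2 libraries, leaving out each library and a replicate block were alternatives. Replicates differed by more than counting noise (chi-square per gene 25.9 to 193). Positions are from GENCODE M21, which held 17047 of the gene identifiers, and is another release than the authors'.

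The members and all lists were chosen with earlier results of these data known. Named genes are the members, Foxp1 and, per list, every gene past the threshold and the 4 largest changes among genes of at least 1 CPM on average, and from marker lists only sums. Hmox2, Flt1, Pecam1, C1qa, C1qc, Ptprc, Acsl4, Slc39a14, Flvcr1, Abcg2, Alad, Uros, Ppox, Glrx5, Ciao3 and Taldo1 were named after their values were seen. Several genes stand in more than 1 list.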

Additional observations from a re-analysis of the deposited data

Results flagged for a closer look

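Of 60 values tested for a control far from the other 3, 7 stood apart by Dixon's criterion, where chance gives about 1 in 20. Control 4 was the high library in 5 of them. Its summed erythroid markers were 3618 CPM against 1116 to 1475 in the other controls, its ratio of Hmox1 to Hmox2 was 0.399 against 0.160 to 0.200, and its summed choroid plexus markers were 11.9 CPM against 8.86 to 9.01. It was also high in Nqo1, at 1.60 CPM against 0.953 to 1.04, and in Aldoa, an enzyme of glycolysis, at 242 CPM against 180 to 188. Tfr2 was at 2.59 CPM in Control 3 against 0.985 to 1.10 in the others, and Vegfa was at 64.9 CPM in Control 2 against 71.0 to 71.7.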

How the results depend on the processing

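None of the 8 iron handling genes passed the adjusted threshold with other size factors, total counts, DESeq2, limma, the filter on low counts or any control left out. The number of all genes past it was 26 in edgeR, 507 in DESeq2 and 2 to 96 with 1 library left out (96 without Control 4). Whether the replicate numbers pair the samples is not known. The correlation of deviations over libraries 1 and 2 was -0.117 by the same number and 0.117 crossed. These are 1 value with opposite signs, since each group has 2 libraries there, so it cannot decide the question. In the fit with the replicate block, Controls 3 and 4 are alone in their blocks and add nothing to the group contrast. That fit called 0 of all genes, so that it called none of the 8 says nothing about them. The crossed block was added after the data were seen and has the same limit. It called 1301 of all 17068 genes, with 2 of the 8 among them (Hmox1 and Fth1). At an unadjusted p under 0.05 the number of the 8 was 2 in edgeR, 1 without Control 1, 2 or 3, and 3 without Control 4. The share of all genes at that p is not given for the fits with a library left out. The log2 fold change of Tfrc changed sign to 0.0016 with total counts, 0.0070 in limma, 0.059 with the replicate block and 0.059 with the crossed block, and it ranged from -0.11 to 0.12 with 1 library left out. That of Ftl1 ranged from -0.20 to 0.085. With the longest transcript as the length, the order of levels per kilobase was the same, and 7 of the 8 levels moved by more than the SD of the controls, by over 1.5 times for Fth1 (99.1), Ireb2 (53.1) and Slc40a1 (2.41). The cause of these changes was not tested. With 2 libraries in a group, precision is set by the spread between embryos and not by depth.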

Other observations

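Iron is also used in the assembly of iron-sulfur clusters, and 24 of 25 genes of mitochondrial iron import and cluster assembly were analysed. In the libraries labelled Foxp1cKO 17 were lower and 7 higher, with a median log2 fold change of -0.07, and 9 of the 24 lay below all controls and 0 above, against 13.1% and 11.5% of all genes. None passed the adjusted threshold in edgeR, and 6 had an unadjusted p under 0.05, all lower: Iscu, Glrx5, Ciao3, Nubp1, Nubp2 and Ciapin1. Iscu is the mitochondrial scaffold on which clusters are built, and Nubp1, Nubp2, Ciao3 and Ciapin1 belong to the cytosolic assembly machinery.

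Ciapin1 was at 73.8, 71.1, 71.9 and 71.3 CPM in the controls and at 50.7 and 55.4 CPM in the libraries labelled Foxp1cKO (log2 fold change -0.44, SE 0.0737, adjusted p = 0.136 in edgeR and 4.05e-05 in DESeq2). Nubp1 was at 34.1, 36.4, 32.5 and 35.7 CPM against 25.2 and 26.2 (log2 fold change -0.43, SE 0.0853, adjusted p = 0.213 in edgeR and 0.00126 in DESeq2). Nubp2 was at 33.1, 29.6, 28.1 and 30.8 CPM against 19.7 and 24.6 (log2 fold change -0.46, SE 0.122, adjusted p = 0.258 in edgeR and 0.0404 in DESeq2). Iscu was at 24.8, 22.7, 21.5 and 25.8 CPM against 17.5 and 19.1 (log2 fold change -0.37, SE 0.111, adjusted p = 0.287 in edgeR). It did not pass the adjusted threshold in DESeq2 either (adjusted p = 0.0629). For Ciapin1, Nubp1, Nubp2 and Iscu the groups did not overlap, and Control 4 lay with the other controls. DESeq2 called 507 of all 17068 genes.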
